A study of Schizosaccharomyces pombe with 9 samples.

Results

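The genes described here encode parts of the spliceosome and associated splicing factors of the fission yeast Schizosaccharomyces pombe. They are not the whole spliceosome, and 53 other proteins of its small nuclear ribonucleoproteins are counted near the end. A gene was taken if it is protein-coding and its name begins with cwf and a digit, or if its product description in the deposited annotation contains "splicing" or "spliceosom", with genes named mug and a number left out. This gave 69 of the 6988 annotated genes, 22 by name and 51 by description, of which 4 met both conditions. The rule used no expression value, but the genes were chosen with earlier results of these data known. The wording of the descriptions also brought in 4 subunits of the tRNA-splicing endonuclease (sen2, sen15, sen34 and sen54) and min8, a mitochondrial mini protein, whose products act outside pre-mRNA splicing. They were kept as the rule demands, and their values are given after those of the other genes.

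RNA-seq was performed on poly(A)+ RNA from 3 strains with 3 biological replicates each, from log phase cultures kept in YES, a rich medium, at 30°C. Snf22 is the ATPase subunit of SWI/SNF, a complex that moves and evicts nucleosomes. The wild-type strain (WT) carried no marker. In snf22∆ most of the open reading frame from the start codon onward was replaced by kanMX, the G418 resistance gene, while the last part of the gene was kept. In snf22-(D996A-E997A) the full-length gene carried alanines at positions in the ATPase active site, followed by the nmt1 poly(A) site and kanMX. Each mutant therefore differed from WT by the marker as well as by its snf22 allele, and the effects of these cannot be told apart. All strains were labelled h-, and whether the replicates of a strain were separate isolates is not given in the sources used here, so the tests measure the spread between these cultures.

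Pre-mRNA splicing removes introns in a pair of transesterification steps. The small nuclear ribonucleoproteins (snRNPs) U1 and U2 mark the splice site and the branch point, the U4/U6·U5 tri-snRNP joins, and helicases then remodel the assembly into its active form. Activation brings in the Prp19 complex, which is organised in fission yeast around the Myb-related protein Cdc5. The cwf genes (complexed with Cdc5) were named because their products copurified with Cdc5. Many fission yeast genes contain introns, which are usually short, and several human spliceosome proteins that budding yeast lacks have counterparts in fission yeast. Since whole cultures were sequenced, fewer cells making a transcript and less of that transcript per cell cannot be told apart.

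The libraries held between 15696972 (WT replicate 3) and 22664218 (snf22∆ replicate 2) counted fragments, and the lowest count of a splicing gene in any library was 21. Values are given as normalized read counts, which are counts divided by library sizes scaled by the trimmed mean of M-values (TMM) and multiplied by the mean of those sizes. The snf22 transcript itself was counted in WT at 2784 ± 48.6, in the deletion at 1357 ± 126 and in the ATPase mutant at 2183 ± 189.7 (normalized read counts, SD, n = 3), the deletion allele keeping the last part of the gene. As a check of the mating type, the M-cell gene mfm2 was counted at 1759 ± 159 in WT, 466 ± 140.1 in snf22∆ and 2621 ± 363 in the ATPase mutant, and the P-cell gene map3 at 395 ± 14.4, 380.5 ± 14.6 and 412 ± 41.2. The other M-cell genes examined were also counted in every library, and relative to WT the log2 fold changes in snf22∆ and the ATPase mutant were -1.21 and 2.85 for mfm1, -1.27 and 0.71 for mfm3, -0.33 and 0.77 for mam1 and -0.50 and 2.69 for mam2. For the P-cell gene map2 they were -0.54 and -1.26, and each of these 10 changes had an adjusted p of at most 0.0448. Genes of both cell types were thus counted in every strain, and these values do not settle the mating type. The paper's strain list gives the strain with snf22∆::kanMX as its only listed change as h+, while the samples are labelled h-. The part of these mating genes in the results below was not tested.

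All 69 splicing genes passed the filter on low counts. Their fragments made up 0.239%, 0.219% and 0.263% of the counts in WT replicates 1, 2 and 3. For snf22∆ replicates 1, 2 and 3 the share was 0.301%, 0.299% and 0.318%. For the same replicates of snf22-(D996A-E997A) it was 0.265%, 0.273% and 0.289%. Every mutant library thus lay above every WT library, with the smallest gap between WT replicate 3 and snf22-(D996A-E997A) replicate 1. The counts of the splicing genes, which also depend on transcript length, were mostly low: 62 of them were under the median coding gene, and 51 (73.9%) fell in the lowest quartile of coding genes by mean normalized count, a quartile that ended at 566.

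The libraries of WT differed among themselves at these genes. The median deviation of the splicing genes from their own 9-library mean was -0.36 on the log2 scale in WT replicate 1, -0.60 in replicate 2 and 0.00 in replicate 3. For snf22∆ the medians were 0.18, 0.17 and 0.31, and for snf22-(D996A-E997A) they were 0.02, 0.03 and 0.24. Replicate 3 was the highest of its strain for 58 splicing genes in WT, 44 in snf22∆ and 48 in the ATPase mutant, against 35.3%, 33.7% and 32.0% of coding genes, and WT replicate 2 was the lowest WT library for 55. Coding genes of the lowest quartile that are not splicing genes moved in the same way, with medians of -0.29, -0.46 and -0.03 in the WT libraries. The median coefficient of variation of a splicing gene was 20.5% in WT, 6.66% in snf22∆ and 10.4% in the ATPase mutant, compared with 12.1%, 4.58% and 6.24% for all coding genes.

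**Figure D1:**
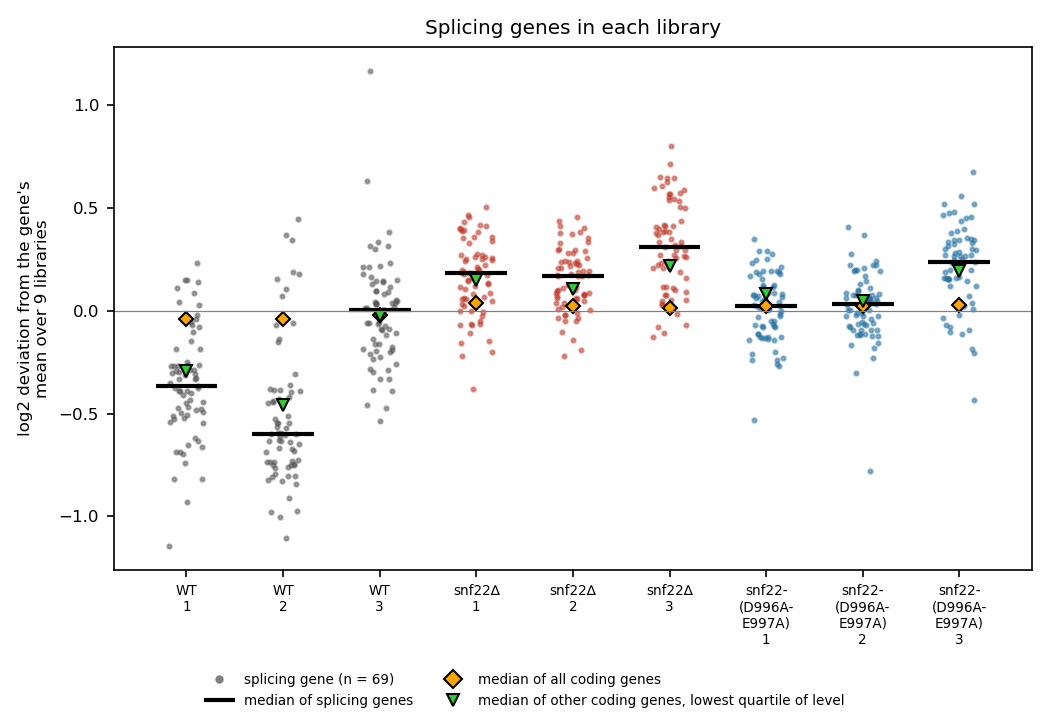
Deviation of each of the 69 splicing genes (points) from its mean over 9 libraries, in log2 units of normalized read count, by library on the horizontal axis. Black lines are medians of the splicing genes, diamonds medians of all coding genes and triangles medians of the other coding genes in the lowest quartile of level. WT replicate 2 has the lowest median (-0.60) and snf22∆ replicate 3 the highest (0.31), and the triangles follow the black lines.

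The comparison of snf22∆ with WT asks how the transcripts of these splicing genes respond to loss of the SWI/SNF ATPase. Most splicing genes were more abundant in the deletion, by modest amounts. Of the 69, 41 were higher and 2 lower at an adjusted p of at most 0.05, and 26 did not pass (edgeR quasi-likelihood test with Benjamini-Hochberg adjustment over 6091 genes). Among all 4965 coding genes tested, 33.5% were higher and 24.7% lower by the same rule. The median log2 fold change was 0.55 for the splicing genes and 0.06 for all coding genes, and 60 of the 69 estimates were above 0. At the additional requirement of a 2-fold change and a mean of at least 100 normalized read counts in the strain with more transcript, 5 splicing genes were higher and 0 lower, while 2.22% of coding genes were higher and 2.22% lower. DESeq2 with the same thresholds on effect and level called 4 higher and 0 lower, against 1.89% and 2.38% of coding genes, and on the adjusted p alone it called 40 higher and 2 lower, against 31.6% and 28.7%. At an unadjusted p under 0.05, 46 splicing genes were higher and 2 lower, against 36.7% and 26.9%. The 3 mutant libraries were all above the 3 WT libraries for 40 splicing genes and all below them for 3, against 36.3% and 29.2% of coding genes.

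The fold changes went with the level of the transcript. In the lowest quartile of level, 58.8% of the 51 splicing genes and 47.6% of the other 1190 coding genes were higher in snf22∆, with medians of 0.58 and 0.41. All 5 splicing genes past 2-fold lay in this quartile, where 54 of the other 1190 were called higher at 2-fold and 20 lower. The snf22∆ libraries were all above WT for 29 of the 51 and 587 of the 1190, and all below for 0 and 111. In the next quartile the medians were 0.67 for 11 splicing genes and 0.25 for the other coding genes, and in the highest quartile -0.13 for 3 splicing genes and -0.21 for the others. When a level-dependent offset removed the trend between each library and the mean level (a scaling chosen after the data were seen), 30 splicing genes were higher, 29 of them among the 41 above, 7 were lower and 0 reached 2-fold, and the median became 0.29. Under that scaling 27.7% of coding genes were higher and 25.1% lower. The 12 rises lost were those of cwf2, cwf3, cwf25, cwf28, saf3, pwi1, cay1, sde2, sen15, sen54, SPAC1705.02 and SPAC6G10.10c, while srp2 was added to the higher genes and cwf7, sap10, sen2, frg1 and SPAC683.02c to the lower ones. For 15 of the 29 genes that stayed higher the estimate was smaller by more than 1.5 times, and the 29 lay between 0.20 and 0.97. Without WT replicate 3 the count of higher splicing genes was 50 and the 2-fold count 8. The 2-fold count was 3 without WT replicate 1, 2 without WT replicate 2 and 2 without snf22∆ replicate 3. The shares of coding genes in these fits are not given here, so the changes cannot be read as particular to the splicing genes.

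**Figure D2:**
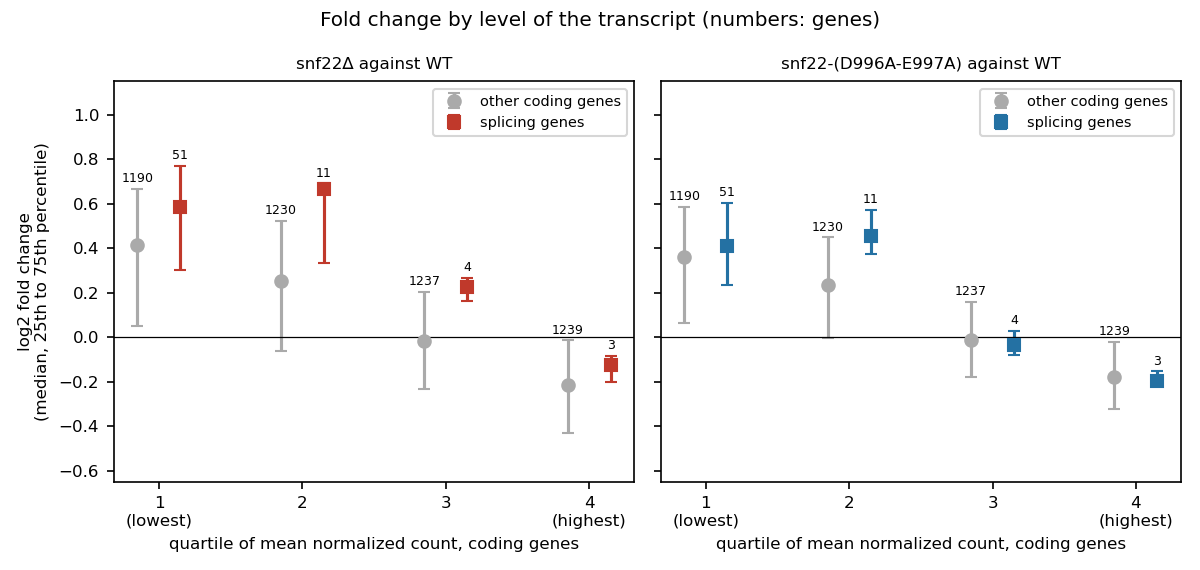
Median log2 fold change of splicing genes (coloured squares) and of the other coding genes (grey circles) against WT in each quartile of coding genes by mean normalized read count, with bars from the 25th to the 75th percentile and the number of genes above. In snf22∆ the splicing genes lie at 0.58 and 0.67 in the lower 2 quartiles where the other genes lie at 0.41 and 0.25, and for both sets the fold changes are lower in the upper quartiles.

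The 5 genes past 2-fold in snf22∆ were all cwf genes: cwf23, cwf24, cwf16, cwf21 and cwf19. cwf23 (SPCC10H11.02), which encodes a J-domain protein whose budding yeast counterpart acts in spliceosome disassembly, was counted at 80.0, 97.6 and 110.2 in the WT libraries, 210.0, 196 and 252 in those of snf22∆, and 179.8, 150.4 and 191 in those of the ATPase mutant. It was upregulated by 2.29-fold in snf22∆ (log2 fold change 1.20 ± 0.17 SE, adjusted p = 0.000224) and by 1.82-fold in the ATPase mutant (0.86 ± 0.17, adjusted p = 0.00239). The strains did not overlap, the ATPase mutant lying between the others. cwf24 (SPBC13E7.02), described as a ubiquitin ligase joined to an acetyltransferase-related part, was at 252, 225 and 353 in WT, 629.9, 610.4 and 651 in snf22∆, and 464, 509 and 566 in the ATPase mutant. The rises were 2.29-fold (1.19 ± 0.15, adjusted p = 9.98e-05) and 1.86-fold (0.90 ± 0.15, adjusted p = 0.000906), again without overlap between the strains.

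cwf16 (SPAC9.13c), the counterpart of budding yeast Yju2, which is needed for the first catalytic step, was at 163, 162 and 291 in WT, 399, 384 and 504 in snf22∆ and 246, 276 and 339 in the ATPase mutant. It rose 2.10-fold in snf22∆ (log2 fold change 1.07 ± 0.22, adjusted p = 0.00197), where every library was above WT. In the ATPase mutant the estimate was 0.49 ± 0.22 (adjusted p = 0.087), WT replicate 3 overlapped the mutant, and without that library the estimate was 0.82 with an adjusted p of 0.00225. cwf21 (SPAC4A8.09c), related to the human SR-type protein SRRM2, was at 284, 229 and 403 in WT, 589.7, 610.4 and 708 in snf22∆, and 408, 470.0 and 594 in the ATPase mutant. Its upregulation was 2.09-fold in snf22∆ (1.06 ± 0.19, adjusted p = 0.00102) and 1.61-fold in the ATPase mutant (0.69 ± 0.20, adjusted p = 0.0142). For cwf21 the lowest ATPase mutant library, replicate 1, was just above the highest WT library, and the call in that mutant was lost without its replicate 3 (adjusted p = 0.0691) and under the level-dependent offset (0.37, adjusted p = 0.058).

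cwf19 (SPAC30D11.09), whose relatives are linked to debranching of the excised intron, was at 283, 227 and 375 in WT, 545, 590.4 and 659 in snf22∆, and 469, 553 and 635 in the ATPase mutant. It rose 2.03-fold in snf22∆ (log2 fold change 1.02 ± 0.17, adjusted p = 0.000641) and 1.88-fold in snf22-(D996A-E997A) cells (0.91 ± 0.17, adjusted p = 0.0018). The study's own list of genes up at least 2-fold in snf22∆ holds cwf23, cwf24, cwf16 and cwf21 but not cwf19. The mutants overlapped each other and both lay above WT. The libraries were stranded, but the strand setting of the counting is not given in the sources used here, and an antisense RNA is annotated for cwf19, so reads from the sense and antisense transcripts may not be fully separated. The same holds for cwf4, cwf10, cwf20 and cwf28. cwf20 (SPCC4B3.14), found with Cdc5, was at 47.8, 31.8 and 66.1 in WT, 90.1, 85.0 and 105 in snf22∆ and 77.6, 72.8 and 76.8 in the ATPase mutant. It rose 1.93-fold in snf22∆ (0.95 ± 0.24, adjusted p = 0.00546) and 1.57-fold in the ATPase mutant (0.65 ± 0.24, adjusted p = 0.042), and this last call was lost in 8 of the 9 fits that left out a library (adjusted p up to 0.130).

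**Figure D3:**
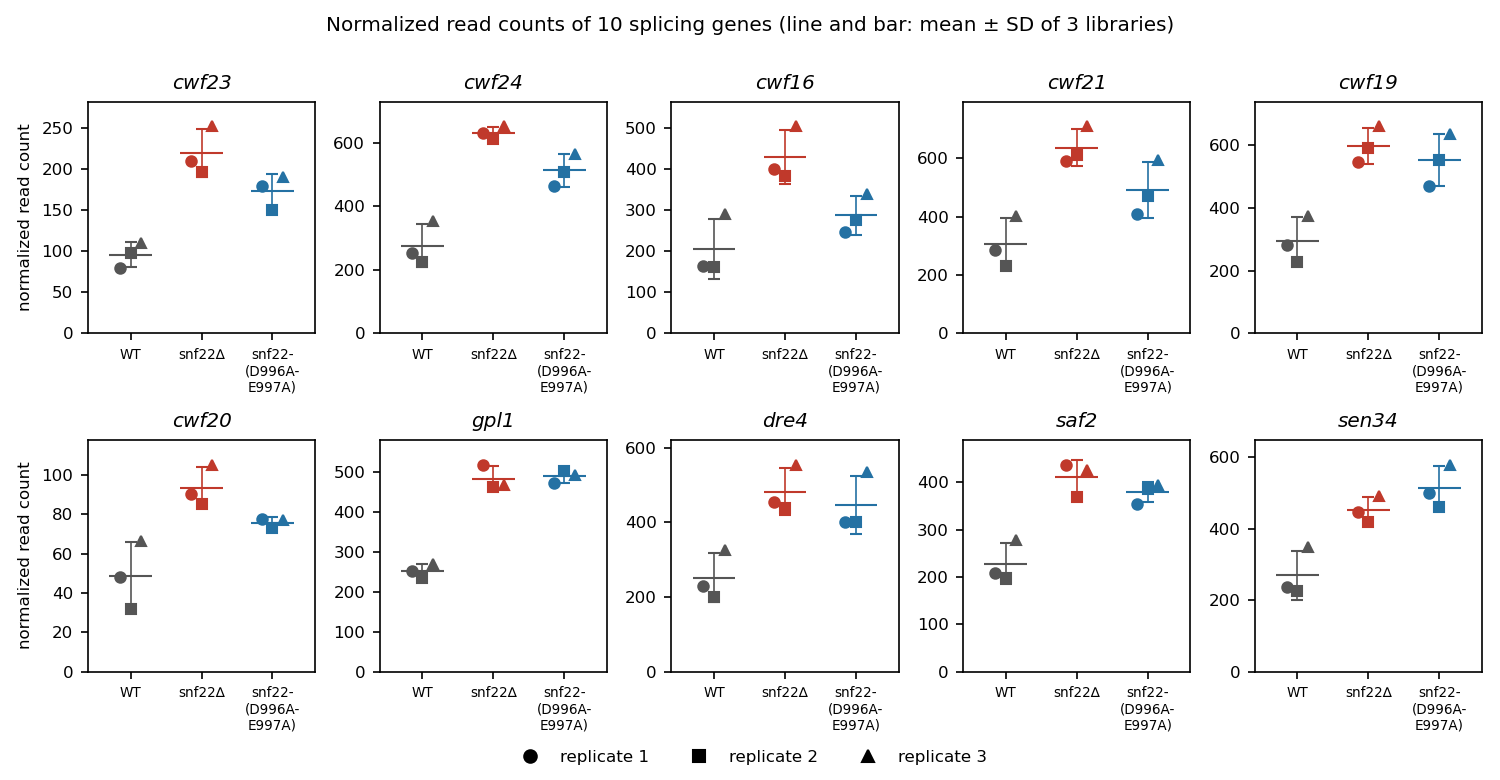
Normalized read counts of the 10 splicing genes with the largest fold changes in either mutant, by strain, with a marker for each replicate, a line at the mean and a bar for the SD (n = 3). All snf22∆ libraries lie above all WT libraries in each panel, and in the cwf16 panel WT replicate 3 (291) lies within the snf22-(D996A-E997A) libraries (246 to 339).

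Of the 22 cwf genes, 17 were higher in snf22∆, 1 was lower and 4 did not pass, with a median log2 fold change of 0.69. Among all coding genes 33.5% were higher and 24.7% lower, and among the other coding genes of the lowest quartile of level 47.6% and 8.07%. In the Prp19 complex proper, cwf5 (0.79 ± 0.14), cwf15 (0.70 ± 0.16), cwf2 (0.67 ± 0.20), cwf4 (0.67 ± 0.14), cwf12 (0.65 ± 0.15) and cwf3 (0.36 ± 0.12) rose in snf22∆, with adjusted p-values between 0.000721 and 0.0292. Cwf2 and Cwf5 bind RNA close to the catalytic core, and Cwf3 and Cwf4 are the tetratricopeptide scaffold proteins called Syf1 and Clf1 in budding yeast. cwf7, another subunit of the complex, was at 388, 324 and 542 in WT, 395, 426 and 450.5 in snf22∆ and 504, 455 and 524 in the ATPase mutant, and its snf22∆ estimate of 0.02 ± 0.16 did not pass (adjusted p = 0.908). Under the level-dependent offset this estimate turned to -0.32 with an adjusted p of 0.0304. Among proteins that join around the catalytic steps, cwf25 (0.69 ± 0.24), cwf26 (0.80 ± 0.18) and cwf29 (0.69 ± 0.09) rose, the last 2 encoding parts of the RES complex that retains and splices pre-mRNA, as did cwf22 (0.69 ± 0.09), whose human counterpart loads the exon junction complex, and cwf28 (0.71 ± 0.18). The cwf3 call was lost in 5 of the 9 fits that left out a library (adjusted p up to 0.121), the cwf25 call in 3 (WT replicates 1 and 2 and snf22∆ replicate 3, up to 0.107) and the cwf2 call without snf22∆ replicate 3 (0.0554). Under the level-dependent offset the estimates of cwf3 (0.03, adjusted p = 0.761), cwf2 (0.34, 0.0758), cwf25 (0.34, 0.129) and cwf28 (0.36, 0.0536) no longer passed.

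Of the remaining 5 cwf genes, 4 did not pass and 1 fell. cwf10, the U5 GTPase that controls spliceosome activation, was at 2697, 2321 and 2345 in WT and at 2535, 2513 and 2407 in snf22∆, an estimate of 0.02 ± 0.09 (adjusted p = 0.886). cwf11, an ATPase related to human Aquarius, gave 0.21 ± 0.10 (adjusted p = 0.104), and cwf18 gave 0.50 ± 0.23 (adjusted p = 0.0794). With the replicate number as a block, which paired the cultures of snf22∆ and WT, cwf18 passed (0.52, adjusted p = 0.0042), and it also passed without WT replicate 3 (0.78, adjusted p = 0.00412). cwf14, the counterpart of budding yeast Bud31, fell by 0.28 on the log2 scale (± 0.08, adjusted p = 0.0112) from 3908, 4596 and 3717 in WT to 3270.4, 3370.2 and 3433 in snf22∆, where each library was below each WT library.

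Outside the cwf genes, the splicing associated factors saf1 to saf5 and dre4 gave 4 higher of 6, against 33.5% of coding genes, with a median log2 fold change of 0.64. dre4 (SPAC13C5.02) was at 230.4, 199 and 326 in WT, 453, 438 and 555 in snf22∆, and 401, 400.2 and 536 in the ATPase mutant, a rise of 1.92-fold (0.94 ± 0.19, adjusted p = 0.00162) and of 1.78-fold (0.83 ± 0.19, adjusted p = 0.00461). saf2 (SPAC2F3.14c) was at 208, 198 and 278 in WT, 437, 369 and 427 in snf22∆, and 355, 386 and 394 in the ATPase mutant, a rise of 1.81-fold (0.86 ± 0.14, adjusted p = 0.000553) and of 1.67-fold (0.74 ± 0.14, adjusted p = 0.00189). For both genes the mutants overlapped each other and lay above all WT libraries. In this group, saf4 (0.69 ± 0.13) and saf3 (0.58 ± 0.21) also passed in snf22∆, while saf5 (0.43 ± 0.18) and saf1 (0.32 ± 0.20) did not. The saf3 call was lost in 4 of the 9 fits without a library (adjusted p up to 0.114) and under the offset (0.30, adjusted p = 0.123), and without WT replicate 3 saf5 (0.65, adjusted p = 0.00508) and saf1 (0.54, adjusted p = 0.0187) passed. The members named in this paragraph and the next 3 were chosen for their roles after their values were seen. The exceptions, named by rule, were dre4, saf2, gpl1, sen34, bpb1, cxr1, sap10 and SPBP4H10.16c.

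Against 33.5% of coding genes, 5 of 6 factors of splice site recognition and the second step were higher in snf22∆. They were wbp4 (0.83 ± 0.19), a component of the complex before activation, slu7 (0.75 ± 0.19), which acts in the second step, rbm17 (0.71 ± 0.16), related to human SPF45, bpb1 (0.35 ± 0.14), which binds the branch point, and cxr1 (0.24 ± 0.08). The bpb1 call was lost in 7 of the 9 fits without a library (adjusted p up to 0.200) and with the replicate block (adjusted p = 0.0535), and the cxr1 call in 4 (up to 0.0708). sap10, a small subunit of SF3b, the U2 part that holds the branch point, gave -0.05 ± 0.11 in snf22∆ (adjusted p = 0.74), and under the level-dependent offset -0.36 with an adjusted p of 0.0298.

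Of 6 genes for spliceosome disassembly, helicases and G-patch proteins, which switch helicases on, 3 rose and 1 fell in snf22∆, against 33.5% and 24.7% of coding genes. gpl1 (SPAC20H4.06c), a G-patch protein, was at 251, 234 and 268 in WT, 519, 461 and 468 in snf22∆, and 472, 503 and 492 in the ATPase mutant. It rose 1.92-fold in snf22∆ (log2 fold change 0.94 ± 0.10, adjusted p = 3.7e-05) and 1.95-fold in the ATPase mutant (0.96 ± 0.11, adjusted p = 4.27e-05). The mutants overlapped each other and lay above all WT libraries. The DEAH-box helicase gene SPAC20H4.09, related to human DHX35, rose by 0.76 ± 0.11 in snf22∆ and by 0.74 ± 0.11 in the ATPase mutant, and the disassembly factor ntr1 by 0.55 ± 0.11 and 0.45 ± 0.11. Its partner ntr2 gave 0.53 ± 0.25 (adjusted p = 0.0823) and 0.59 ± 0.25 (adjusted p = 0.0668), and without WT replicate 3 it passed in both (0.74, adjusted p = 0.0203, and 0.81, adjusted p = 0.0153). The G-patch gene SPBP4H10.16c had the largest fall among the splicing genes that passed in either mutant, from 1127, 1309 and 1062 in WT to 825, 869 and 877 in snf22∆ and 939.5, 881 and 843 in the ATPase mutant. It fell by 0.44 (± 0.09, adjusted p = 0.0019) and by 0.39 (± 0.09, adjusted p = 0.00519) on the log2 scale, with no mutant library reaching WT.

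Of 5 genes for SR and exon junction proteins, which mark exons and spliced junctions, 1 (20%) rose in snf22∆, under the 33.5% of coding genes. It was the SRm160-type coactivator gene pwi1 (0.54 ± 0.20, adjusted p = 0.0409). Its call was lost in 6 of the 9 fits without a library (adjusted p up to 0.135) and under the level-dependent offset (0.19, adjusted p = 0.271). The SR protein gene srp2 gave -0.13 ± 0.08 (adjusted p = 0.187), and under that offset its estimate turned to 0.15 with an adjusted p of 0.0484. The pinin gene pnn1 gave 0.24 ± 0.20 (adjusted p = 0.308). Of the other 20 genes, 8 (40%) rose in snf22∆ and 12 did not pass. That share is near the 33.5% of all coding genes and under the 47.6% of the other coding genes in the lowest quartile of level. The rises included SPAC22E12.02 (0.84 ± 0.12), SPAC30D11.14c (0.81 ± 0.08), the cactin gene cay1 (0.62 ± 0.21) and sde2 (0.58 ± 0.13), whose products act together in fission yeast on particular introns. The offset ended the calls of cay1 (0.31, adjusted p = 0.104) and sde2 (0.23, adjusted p = 0.0582), and the cay1 call was also lost without WT replicate 1, WT replicate 2 or snf22∆ replicate 3 (adjusted p up to 0.0796). Of the tRNA-splicing endonuclease genes, sen34, sen54 (0.49 ± 0.10) and sen15 (0.45 ± 0.14) rose and sen2 gave -0.12 ± 0.10 (adjusted p = 0.3). The sen15 call was lost without WT replicate 1, WT replicate 2 or snf22∆ replicate 3 (adjusted p up to 0.0743), and under the offset sen54 (0.15, adjusted p = 0.154) and sen15 (0.13, adjusted p = 0.329) no longer passed while sen2 was lower (-0.47, adjusted p = 0.00199). The catalytic subunit gene sen34 (SPBC19C7.07c) was at 235, 225 and 348 in WT, 445, 418 and 489.8 in snf22∆ and 500.2, 459 and 579 in the ATPase mutant, a rise of 1.68-fold (0.75 ± 0.16, adjusted p = 0.00285) and of 1.91-fold (0.94 ± 0.16, adjusted p = 0.00111), with both mutants above WT. min8 (SPAPB8E5.10) was at 20.5, 51.1 and 104 in WT, 55.1, 59.8 and 53.1 in snf22∆ and 52.1, 26.5 and 33.8 in the ATPase mutant. The WT libraries spanned the range of both mutants, and the estimates of -0.03 ± 0.44 in snf22∆ (adjusted p = 0.966) and -0.60 ± 0.46 in the ATPase mutant (adjusted p = 0.289) did not pass. The ATPase mutant estimate, the lowest of the 69 in that comparison, was -1.03 (adjusted p = 0.0303) without WT replicate 1 and 0.10 without WT replicate 3. Without these 4 genes and min8, 38 of 64 splicing genes were higher and 2 lower in snf22∆.

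**Figure D4:**
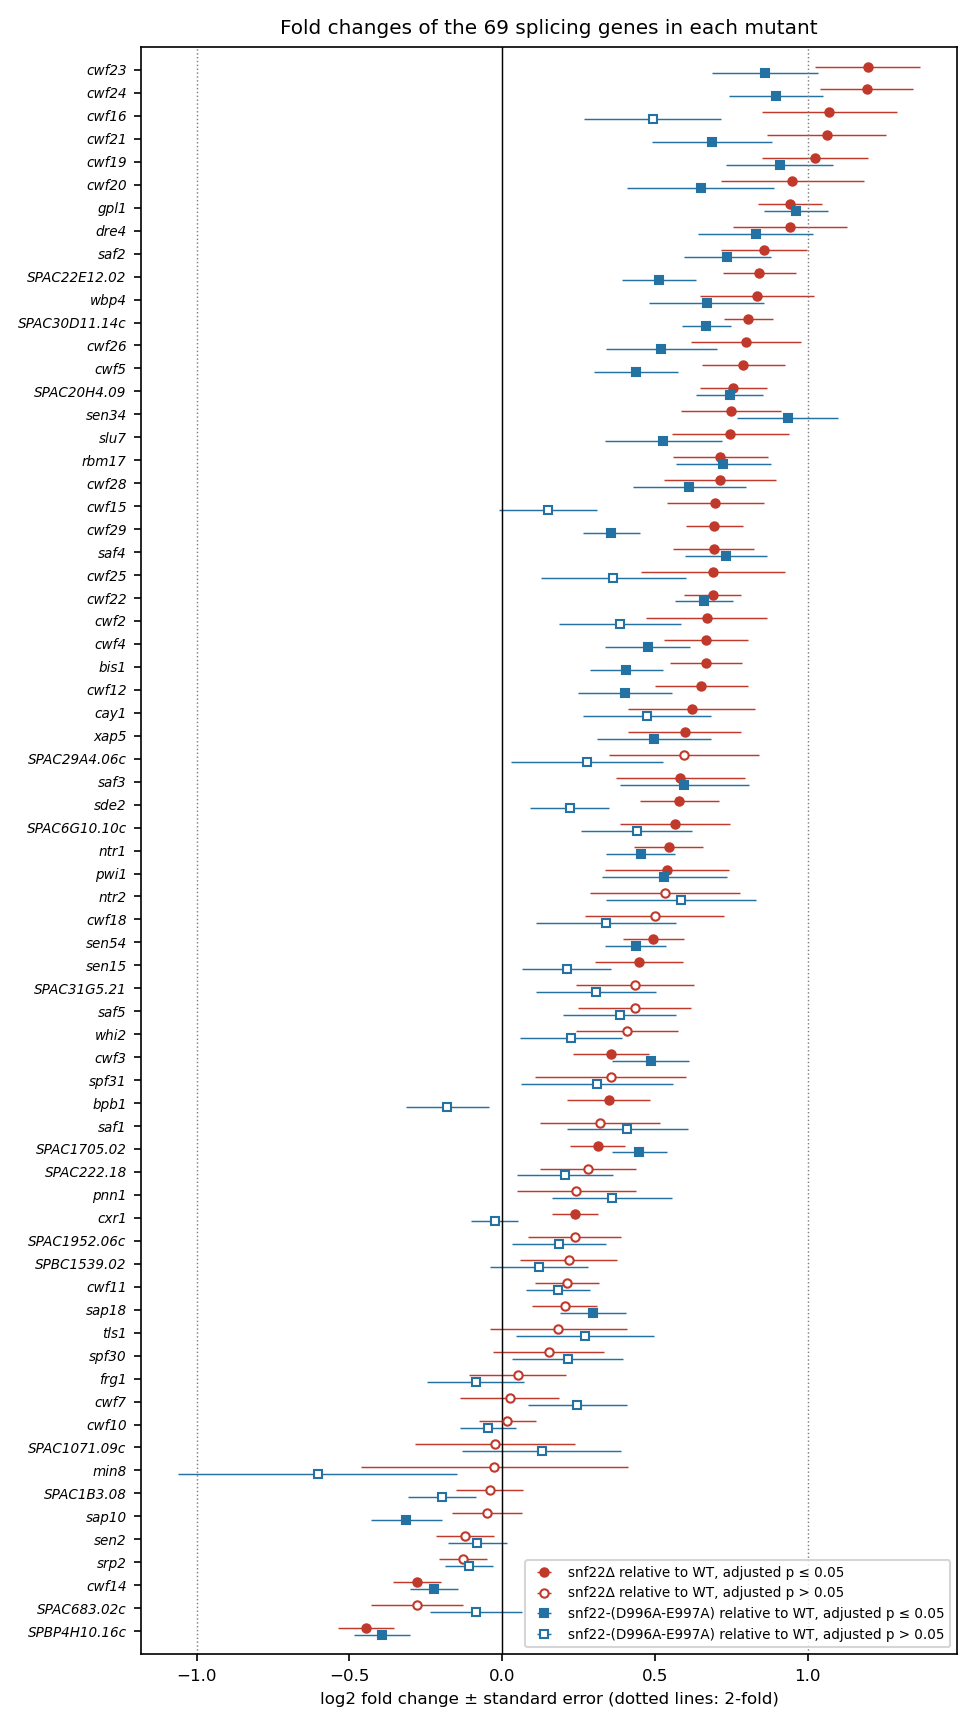
Log2 fold change and standard error of each of the 69 splicing genes in snf22∆ (circles) and snf22-(D996A-E997A) cells (squares) relative to WT, ordered by the snf22∆ value, with filled symbols at an adjusted p of at most 0.05 and dotted lines at 2-fold. The values run from -0.44 for SPBP4H10.16c to 1.20 for cwf23 in snf22∆, and the squares of cwf16, cwf15 and bpb1 lie well to the left of their circles.

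The comparison of snf22-(D996A-E997A) with WT asks what follows when the protein is present without ATPase function, and it used the same WT libraries. Here 32 splicing genes were higher, 3 lower and 34 did not pass, against 28.1% of coding genes higher and 19.7% lower. The median log2 fold change was 0.40, compared with 0.06 for coding genes. At 2-fold, 0 were higher and 0 lower, against 1.51% and 1.75% of coding genes. DESeq2 called 0 higher and 0 lower at 2-fold, against 1.39% and 1.81% of coding genes, and on the adjusted p alone it called 32 higher and 3 lower, against 27.1% and 23.3%. At an unadjusted p under 0.05 there were 36 higher and 3 lower, against 32.9% and 22.9%. The mutant libraries were all above WT for 31 splicing genes and all below for 3, against 30.1% and 22.8% of coding genes. The largest rises were those of gpl1, sen34, cwf19 and cwf24 given above. The 3 that fell were SPBP4H10.16c, cwf14 (by 0.22 ± 0.08, adjusted p = 0.0368) and sap10 (by 0.31 ± 0.12, adjusted p = 0.0434), the last from 223, 237 and 224 in WT to 178, 179 and 194. The cwf14 call was lost in 7 of the 9 fits without a library (adjusted p up to 0.101) and the sap10 call in 8 (up to 0.115). Under the level-dependent offset the cwf14 estimate was -0.10 (adjusted p = 0.14).

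By group, 13 of the 22 cwf genes were higher and 1 lower in the ATPase mutant (median 0.46). Among all coding genes 28.1% were higher and 19.7% lower, and among the other coding genes of the lowest quartile of level 41.6% and 7.82%. The counts were 4 of 6 for the splicing associated factors, 3 higher and 1 lower of 6 for splice site recognition and the second step, 3 higher and 1 lower of 6 for disassembly and helicases, 2 of 5 for SR and exon junction proteins, 2 of 4 for the tRNA endonuclease and 5 of 20 for the rest. In the Prp19 complex, cwf3 (0.49 ± 0.12), cwf4 (0.48 ± 0.14), cwf5 (0.44 ± 0.14) and cwf12 (0.40 ± 0.15) rose, and cwf2 (0.39 ± 0.20), cwf7 (0.25 ± 0.16) and cwf15 (0.15 ± 0.16) did not pass. cwf22 (0.66 ± 0.09), cwf28 (0.61 ± 0.19), cwf26 (0.52 ± 0.18) and cwf29 (0.36 ± 0.09) rose as well. cwf25 (0.36 ± 0.24), cwf18 (0.34 ± 0.23), cwf11 (0.18 ± 0.11) and cwf10 (-0.05 ± 0.09) did not pass. Without WT replicate 3, cwf2 (0.64, adjusted p = 0.00858), cwf7 (0.48, 0.00907), cwf18 (0.64, 0.0149) and cwf25 (0.66, 0.021) passed, as cwf16 did. Under the level-dependent offset the rises of cwf3 (0.19), cwf4 (0.27), cwf5 (0.11), cwf12 (0.07), cwf26 (0.20), cwf28 (0.29) and cwf29 (0.17) no longer passed, with adjusted p-values between 0.0735 and 0.644.

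Of the 20 genes named by rule that passed in the ATPase mutant, 11 kept the call whichever library was left out, cwf3 and cwf29 among them, compared with 20 of 25 in snf22∆. The others were cwf14, sap10, cwf20 and cwf21, described above, with cwf12 (lost in 7 of 9 fits, adjusted p up to 0.240), cwf26 (5, up to 0.124), cwf28 (WT replicate 1 and mutant replicate 3, up to 0.0741), cwf5 (mutant replicates 2 and 3, up to 0.0995) and cwf4 (mutant replicate 3, 0.0613). The count of higher splicing genes was 19 without mutant replicate 3 and 48 without WT replicate 3. The 2-fold count was 5 without WT replicate 3, and 1 without mutant replicate 1 or 2. The count of lower genes was 1 whenever a snf22∆ or a mutant library was left out. The shares of coding genes in these fits are not given here either. In the lowest quartile of level, 47.1% of the splicing genes and 41.6% of the other coding genes were higher, with medians of 0.41 and 0.36. The mutant libraries were there all above WT for 23 of 51 splicing genes and 519 of 1190 others, and all below for 1 and 101. With the level-dependent offset 15 splicing genes were higher and 5 lower, all 15 among the 32 and 11 of them with an estimate smaller by more than 1.5 times, the median was 0.12, and 19.7% of coding genes were higher and 18.3% lower.

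A direct comparison of the mutants asks whether a catalytically inactive Snf22 differs from none. With snf22∆ as the reference, edgeR found 0 splicing genes higher and 4 lower in the ATPase mutant at an adjusted p of at most 0.05, against 8.28% and 8.02% of coding genes. At an unadjusted p under 0.05 there were 0 higher and 10 lower, against 16.0% and 14.8%, and DESeq2 gave 0 higher and 4 lower, against 12.0% and 8.86%. At 2-fold both tools called 0 higher and 0 lower, against 0.785% and 0.725% of coding genes in edgeR and 0.826% and 0.725% in DESeq2. The median log2 difference was -0.11, compared with -0.01 for coding genes, and 49 of the 69 estimates were below 0. The ATPase mutant libraries were all above those of snf22∆ for 3 splicing genes and all below for 19, against 24.6% and 23.7% of coding genes.

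The 4 lower genes were cwf15, bpb1, cwf29 and cxr1. cwf15, a small subunit of the Prp19 complex, was at 194, 199.8 and 276 in WT, 339, 339.9 and 405 in snf22∆ and 225, 239.9 and 277 in the ATPase mutant, lower than in snf22∆ by a log2 difference of -0.55 ± 0.16 (adjusted p = 0.0326). bpb1 was at 2953, 2072 and 2692 in WT, 3413, 3339.8 and 3082 in snf22∆ and 1839, 2461 and 2519 in the ATPase mutant (-0.53 ± 0.14, adjusted p = 0.0215). For both, the ATPase mutant overlapped WT and lay below every snf22∆ library. cwf29 was at 797, 678 and 855 in WT, 1334, 1201 and 1233 in snf22∆ and 955, 1019.6 and 1010.3 in the ATPase mutant (-0.34 ± 0.09, adjusted p = 0.0282), between the other strains without overlap. cxr1 was at 1519.8, 1714 and 1430.5 in WT, 1874, 1861 and 1769 in snf22∆ and 1511, 1547 and 1529 in the ATPase mutant (-0.26 ± 0.08, adjusted p = 0.0343), within the WT range. Leaving out a library ended the calls of cwf15, cwf29 and cxr1 in 6 of 9 fits each, those without a snf22∆ or mutant library, and that of bpb1 in 3, with adjusted p up to 0.132. The count of lower genes was 0 without snf22∆ replicate 1, snf22∆ replicate 2 or mutant replicate 1. It was 1 without each of the other snf22∆ and mutant libraries, and 9 without WT replicate 2. The shares of coding genes in these fits are not given here. For gpl1, the gene with the smallest error among the 10 plotted by library, the log2 difference between the mutants was 0.02 ± 0.10.

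Genes of neighbouring pathways that the rule did not take give the setting for these counts. Of 53 other snRNP proteins, such as the Sm and Lsm ring subunits and U1, U2 and tri-snRNP proteins, 32 were higher and 4 lower in snf22∆ (median log2 fold change 0.46), and 26 and 4 in the ATPase mutant (0.36). Of 11 proteins of mRNA export and the exon junction, 7 and 1 were higher and lower in snf22∆ (0.47) and 4 and 1 in the ATPase mutant (0.38). Of 16 proteins of mRNA 3′ end formation, 8 and 2 were higher and lower in snf22∆ (0.17), and 7 and 2 in the ATPase mutant (0.10). Of 61 proteins of rRNA processing, 10 were higher and 18 lower in snf22∆ (-0.01), and 6 and 13 in the ATPase mutant (-0.06). These lists were not matched for transcript level and no test of one list against another was made. By the same threshold, the share of all coding genes that rose was 33.5% in snf22∆ and 28.1% in the ATPase mutant. The share that fell was 24.7% and 19.7%. The median level was 829 normalized read counts for the other snRNP proteins and 582 for export and exon junction. It was 1795 for 3′ end formation and 881 for rRNA processing, against 393 for the splicing genes. The splicing genes lie on all 3 chromosomes, 32 on I, 24 on II and 13 on III. By the neighbour order of RefSeq assembly ASM294v3, whi2 and SPAC20H4.09 are next to each other, as are cwf22 and cwf24.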

How the data were processed

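The authors grew 3 strains in triplicate, made stranded poly(A)+ libraries, aligned the paired-end reads to ASM294v2 with HISAT2 2.1.0 and counted them over PomBase exons with HTSeq 0.10.0. The deposited counts are whole numbers per gene and were not normalized. The authors' tables of fold changes and p-values from DESeq2 were used for gene names and product descriptions alone. Their comparison columns were not used.

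Testing with edgeR 4.0.16 in R 4.3.3 took every gene that reached 10 counts in 3 or more of the 9 libraries: TMM factors, 1 fit over the 3 strains, glmQLFit and glmQLFTest, and Benjamini-Hochberg adjustment over 6091 genes, with an adjusted p up to 0.05 as the threshold. A 2-fold call also required a mean of at least 100 normalized read counts in the strain with more transcript, as in the study. Coding genes were those so typed in RefSeq for ASM294v3, matched by locus tag (6836) or synonym (12), with 140 IDs unmatched. The common biological coefficient of variation was 0.104. The script was tested on simulated data.

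The genes, lists and tests were chosen with earlier results of these data known. Named by rule were the genes called at 2-fold, all cwf genes, and the 4 largest rises and falls past the threshold in each comparison. By rule, values per library were given and plotted for 10 of them, those called at 2-fold and the next by size of change. Such values were also printed for other genes that this rule did not pick, cwf7, cwf15 and min8 among them. Same-numbered cultures of snf22∆ and WT deviated together (Pearson r across genes 0.337, 0.475 and 0.521), and those of the ATPase mutant did not in every pair. Differently numbered cultures could deviate together as well, as ATPase mutant replicate 1 did with WT replicate 2 (0.474). The labels give no batch shared by cultures of the same number. The alternatives were DESeq2 1.42.0 factors and test, upper-quartile factors, other filters, fits of the compared strains alone, the replicate block, each library left out, other gene choices and, added after the data were seen, the level-dependent offset and the fit without replicate 3 of every strain. No sequence is shown.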

Additional observations from a re-analysis of the deposited data

How the results depend on the processing

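The direction of the median over the splicing genes was the same in each comparison under every alternative run: 0.29 to 0.72 for snf22∆ against WT, 0.12 to 0.60 for snf22-(D996A-E997A) against WT, and -0.26 to -0.04 between the mutants. Several counts changed by more than 1.5 times, some of them in fits with fewer genes or samples, and the cause was not tested. With upper-quartile factors, 1 gene was lower and 2 reached 2-fold in the ATPase mutant, and 2 were lower than in snf22∆. Fits of the compared strains alone gave 1 lower in the ATPase mutant and 9 lower than in snf22∆. Restriction to the 22 cwf genes gave 17 higher and 1 lower in snf22∆, 13 and 1 in the ATPase mutant and 2 lower between the mutants, and restriction to the 51 genes taken by description gave 27 and 1 with 1 at 2-fold, 21 higher in the ATPase mutant, and 2 between the mutants. Without replicate 3 of every strain, 45 genes were higher in snf22∆ and 41 in the ATPase mutant, with 7 and 4 at 2-fold, 1 lower in the ATPase mutant and 2 lower between the mutants. The level-dependent offset gave 7 lower and 0 at 2-fold in snf22∆, 15 higher and 5 lower in the ATPase mutant, 8 lower between the mutants (against 10.5% of coding genes), and -0.32 for cwf7 in snf22∆ (adjusted p = 0.0304).

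Leaving out 1 library gave 31 to 50 higher, 2 to 3 lower and 2 to 8 at 2-fold in snf22∆. It gave 19 to 48 higher, 1 to 4 lower and 0 to 5 at 2-fold in the ATPase mutant, and 0 to 9 lower between the mutants. For the fits of this section other than the level-dependent offset, the shares of coding genes are not given here. Their counts cannot be read as changes particular to the splicing genes. With the replicate block, which pairs snf22∆ and WT cultures, 47 genes were higher and 2 lower in snf22∆ with 5 at 2-fold, 40 of the 41 among them, and beyond the cwf18 and bpb1 calls it changed no other call of a gene named by rule in that comparison. Same-numbered cultures of the ATPase mutant and WT did not deviate together in every pair (r -0.332, 0.0834 and 0.548). With the block, all 32 higher genes of the ATPase mutant kept the call. cwf2 (0.39, adjusted p = 0.011), cwf16 (0.51, 0.00835), cwf18 (0.36, 0.0321) and cwf25 (0.37, 0.0389) then also passed in it. Between the mutants the block gave 8 lower. In WT the counts were near 100 or fewer for cwf20 and cwf23, and the median spread of the splicing genes was larger among the WT cultures than among those of either mutant. The part of each in the precision of the estimates was not tested.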

Other observations

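Antisense RNAs are annotated for 5 cwf genes, and these transcripts were not part of the comparisons above. cwf19-antisense-1 had 1290 ± 286 normalized read counts in WT, against 752 ± 34.9 in the deletion and 642 ± 85.7 in the ATPase mutant (SD, n = 3). Relative to WT it fell in the deletion by 0.78 (± 0.14 SE, adjusted p = 0.00109) and in the ATPase mutant by 1.00 (± 0.15, adjusted p = 0.000318) on the log2 scale, while cwf19 itself rose in both mutants. cwf10-antisense-1 fell by 1.44 (± 0.30, adjusted p = 0.00228) and by 1.24 (± 0.30, adjusted p = 0.00676), and cwf28-antisense-1 by 0.65 (± 0.17, adjusted p = 0.00864) and by 0.88 (± 0.18, adjusted p = 0.00246). cwf4-antisense-1 gave -0.20 ± 0.20 in snf22∆ (adjusted p = 0.41) and fell by 0.88 (± 0.21, adjusted p = 0.00632) in the ATPase mutant. cwf20-antisense-1 passed in neither mutant, with 0.24 ± 0.15 (adjusted p = 0.186) and -0.34 ± 0.15 (adjusted p = 0.0841). Of all 6091 genes tested, 25.8% were lower and 30.2% higher in snf22∆, and 22.7% and 25.8% in the ATPase mutant. A relation between the sense and antisense changes was not tested.

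The product of mug161 is described as a splicing factor, and the rule left this gene out for its name. It was at 5367 ± 753 in WT, 2687 ± 57.2 in snf22∆ and 2806 ± 20.8 in the ATPase mutant. It fell by 1.00 (± 0.09, adjusted p = 6.31e-06) and by 0.94 (± 0.09, adjusted p = 1.45e-05) on the log2 scale. In each mutant this fall was larger than that of any of the 69 splicing genes. The study lists mug161 among the genes down at least 2-fold in snf22∆.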
